A study of Homo sapiens with 6 samples.

Results

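The proximal tubule identity genes are a set of 8 genes of the kidney tubule epithelium, not all of them confined to its first stretch. Among them are the endocytic receptors LRP2 and CUBN, the transmembrane protein KL, the water channel AQP1 and the brush border enzyme GGT1. The others are the transcription factors HNF4A, PAX8 and PAX2. The 8 were chosen by name, and all were found, each as a single entry, among the 38648 genes and gene copies listed under 34644 names. The data were bulk RNA-seq libraries of HK-2 cells, a human proximal tubular cell line immortalized with viral oncogenes. All cells received a single X-ray dose of 8 Gy and were collected on day 7, and they carried either NC-LV, a control lentivirus (IR+NC-LV, n = 3), or PR-LV, a lentivirus for overexpression of the transcription factor PRDM16 (IR+PR-LV, n = 3). Cells without lentivirus had been removed with puromycin, so both groups are selected populations of 1 cell line. Neither cells without irradiation nor kidney tissue was analysed here, so a level can be called low in these cells, but not lower than before irradiation or than in the kidney.

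The proximal tubule takes back most of what the glomerulus filters. Its apical membrane carries the receptors megalin (LRP2) and cubilin (CUBN), which bind filtered proteins and bring them into the cell through clathrin-coated pits, beside sodium-coupled transporters, water channels and brush border peptidases. PAX2 and PAX8 set up the renal epithelium in the embryo, and HNF4A drives the later maturation of proximal tubule cells. KL encodes alpha-klotho, the co-receptor through which FGF23 acts on phosphate handling.

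In these cells the 8 genes spanned a wide range, from PAX8, above 95% of genes with any count, to nearly none. PAX8 and GGT1 were high, KL was intermediate, PAX2 and AQP1 were low, CUBN was lower still, and HNF4A and LRP2 were at or near 0 in all 6 libraries. None of the 6 genes that could be tested passed the threshold when PR-LV was compared with NC-LV. KL had the smallest p-value of them, with all 3 IR+PR-LV libraries below all 3 IR+NC-LV libraries.

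Libraries held between 13407074 and 28540041 counts, and replicates of a group differed by more than sampling noise (chi-square per degree of freedom between 3.74 and 14.9). PRDM16, the gene carried by the lentivirus, had 14, 10 and 8 counts with PR-LV and 2, 0 and 1 with NC-LV, so it was higher in the libraries labelled as overexpressing it. These counts are few, no more than those of CUBN in any IR+PR-LV library (14, 25 and 26). The size of the overexpression is thus poorly measured here. The labels number the samples as cells of each group without saying whether they were separate cultures, and p-values measure only the spread between these samples. Levels of different genes were compared as deposited TPM (counts per length of gene, with 1 common sum for all libraries), and groups were compared from the counts with edgeR's quasi-likelihood test, at an adjusted p-value under 0.05. Of 15340 genes tested, 10 passed (0.0652%), while 10.5% had an unadjusted p-value under 0.05 and 17% had groups of libraries that did not overlap.

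The bases just upstream of 3 of these genes are shown because their levels lie at opposite ends. PAX8 is the most abundant of the 8, LRP2 the least, and HNF4A, also near 0, has 2 start sites in RefSeq, the second of which belongs to the promoter known to serve adult liver and kidney. The sequences are from RefSeq (GRCh38.p14), 5′ to 3′ on the strand of the gene, outside the exons listed in the files, and capitals mark CG dinucleotides. They lie at chr2:113278922-113279171 (minus strand), chr2:169362598-169362784 (minus strand), chr20:44355449-44355698 (plus strand, first start) and chr20:44400989-44401238 (plus strand, second start).
PAX8: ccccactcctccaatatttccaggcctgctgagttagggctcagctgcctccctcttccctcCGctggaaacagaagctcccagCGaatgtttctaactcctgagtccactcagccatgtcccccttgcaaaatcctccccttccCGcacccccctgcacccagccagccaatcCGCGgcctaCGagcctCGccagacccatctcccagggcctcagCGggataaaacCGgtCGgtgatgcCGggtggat
LRP2: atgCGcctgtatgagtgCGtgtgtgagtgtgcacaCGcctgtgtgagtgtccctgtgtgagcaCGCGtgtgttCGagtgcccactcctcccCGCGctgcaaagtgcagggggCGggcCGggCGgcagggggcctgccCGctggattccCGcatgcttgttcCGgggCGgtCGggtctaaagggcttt
HNF4A first start: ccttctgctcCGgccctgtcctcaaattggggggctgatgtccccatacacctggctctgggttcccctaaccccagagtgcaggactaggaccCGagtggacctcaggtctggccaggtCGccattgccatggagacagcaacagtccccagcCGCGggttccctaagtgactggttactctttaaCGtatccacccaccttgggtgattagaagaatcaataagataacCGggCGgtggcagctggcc
HNF4A second start: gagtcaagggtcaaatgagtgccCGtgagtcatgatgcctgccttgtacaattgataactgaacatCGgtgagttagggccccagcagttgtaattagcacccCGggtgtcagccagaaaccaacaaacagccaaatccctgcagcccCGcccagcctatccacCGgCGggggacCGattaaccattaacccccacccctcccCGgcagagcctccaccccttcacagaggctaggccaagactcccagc

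Over the 250 bases before each start, RefSeq gave 11 promoters for the 8 genes, among 35116 promoters of 27305 symbols. PAX8 had 11 CG dinucleotides, which is also the median of all promoters (quartiles 3 and 23). The same window held 21 for LRP2 and 8 before each start of HNF4A, so LRP2 had the most CG-rich start of these 3 genes. In LRP2, 63 of the 250 bases are exon in the deposited annotation, and the 187 bases printed above hold 16. KL had the most of the 8, with 38 CG dinucleotides and a GC content of 80%, and CUBN the fewest, with 1 and 38%. Part of the KL window and all of the CUBN window lie in exons of the deposited annotation. Searched on both strands, the letters CCAAT were found before PAX8 and the first HNF4A start (32% of all promoters), TATAAA before AQP1 (10.7%), and CAAAGTCCA, a site for HNF4, before none of the 11 (0.325%). Such matches describe the letters only.

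Levels are given first, gene by gene from the highest. The plot of TPM by library shows their order.

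**Figure D1:**
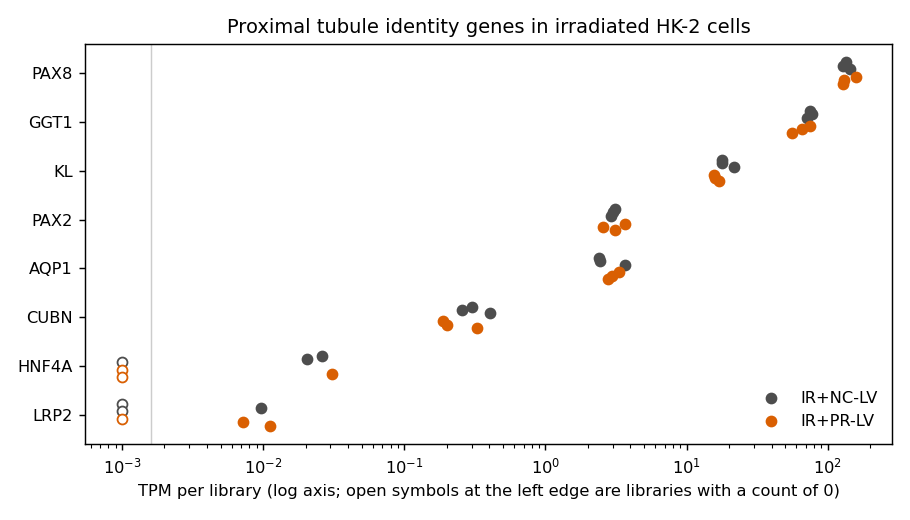
Deposited TPM of the 8 genes in each of the 6 libraries (log axis), with IR+NC-LV in grey and IR+PR-LV in orange; open symbols at the left edge are libraries with a count of 0. PAX8 sits between 128.43 and 157.74 TPM, whereas HNF4A and LRP2 have a count of 0 in 3 libraries each and no library above 0.0309 TPM.

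PAX8, a paired-box transcription factor kept in the adult renal epithelium, is at chr2:113215997-113278921 (GRCh38, minus strand) with 4055 exon bases. Its counts were 2829, 3449 and 2337 in IR+NC-LV and 3344, 4631 and 2940 in IR+PR-LV. Mean TPM over the 6 libraries was 137.5 ± 11.6 (SD, n = 6), and 95% of the 28831 genes with any count were lower. Its antisense neighbour PAX8-AS1 shares 66 exon bases with it (1.63% of PAX8) and had 374 to 562 counts per library. Whether the counting used the strand is not given in the sources used here, and reads in those shared bases cannot be assigned with certainty.

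GGT1, gamma-glutamyl transferase 1, is a brush border enzyme that cleaves extracellular glutathione. The gene is at chr22:24583750-24628996 (plus strand) and had 1124, 1489 and 838 counts in IR+NC-LV and 1141, 1688 and 930 in IR+PR-LV. Its mean TPM of 69.9 ± 7.76 (SD, n = 6) was 3.96 times that of KL and lay above 90% of genes. GGT1 has near-identical relatives, between which reads can be split. The annotated relatives GGT2, GGTLC1, GGTLC2 and GGTLC3 held 5, 1, 3 and 3 counts over all libraries, against 7210 for GGT1.

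KL is at chr13:33016063-33066143 (plus strand) and has 5265 exon bases. It had 482, 618 and 455 counts in IR+NC-LV and 430, 734 and 507 in IR+PR-LV. The level was 17.6 ± 2.18 TPM (SD, n = 6), above 74.3% of genes with any count and 5.77 times that of PAX2. Among the human qPCR primers that the study lists is a pair for KL, and these were placed on the GENCODE transcripts of KL because they show which part of the RNA that assay reads.
KL forward primer: ctgtgactttgcttggggag
KL reverse primer: agtccagggagaagcgaaaa

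The forward primer matched exon 3 of 5 at chr13:33055276-33055295 and the reverse primer exon 4 at chr13:33060855-33060874 of the transcript of 5006 bases, which gives a product of 236 bases across an intron. The pair also matched a second, shorter transcript of 3214 bases with a product of 286 bases. The counts cover all exons, so they do not separate these transcripts.

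PAX2, the paired-box factor of the nephric duct and early tubule, had 82, 102 and 59 counts in IR+NC-LV and 97, 115 and 89 in IR+PR-LV. Its position is chr10:100735396-100829944 (plus strand). AQP1, the constitutive water channel of the proximal tubule and thin descending limb, is at chr7:30911853-30925516 (plus strand) and had 34, 44 and 40 counts in IR+NC-LV and 48, 71 and 43 in IR+PR-LV. Their mean TPM were 3.06 ± 0.348 and 2.92 ± 0.499 (SD, n = 6), and the ranges over the 6 libraries overlapped, so the order of this pair was not resolved. PAX8 exceeded its paralogue PAX2 in every library.

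CUBN, the cubilin receptor, is at chr10:16823966-17130492 (minus strand) and has 14184 exon bases. It had 22, 24 and 23 counts in IR+NC-LV and 14, 25 and 26 in IR+PR-LV. The long transcript turns these counts into 0.280 ± 0.0820 TPM (SD, n = 6), and AQP1 was 10.4 times as high. Of the genes with any count, 36.6% were lower than CUBN. CUBN was detected in every library.

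HNF4A and LRP2 had at most 2 counts in any library. HNF4A, at chr20:44355699-44434596 (plus strand), had 1, 1 and 0 counts in IR+NC-LV and 0, 2 and 0 in IR+PR-LV, 4 in all. LRP2, at chr2:169127109-169362597 (minus strand), had 0, 1 and 0 counts in IR+NC-LV and 0, 1 and 1 in IR+PR-LV, 3 in all. In the libraries with a count of 0, taken as at most 3 counts, up to 0.0721 to 0.102 TPM of HNF4A is allowed. For LRP2 the limit is 0.0364 to 0.0477 TPM. These limits depend on the depth of the library and cover counting error only. At this depth both genes are below CUBN and could not be compared between the groups. In bulk RNA, fewer cells that express a gene and less RNA per cell cannot be told apart.

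Among neighbours in this order, PAX2 and AQP1 overlapped over the 6 libraries, as did HNF4A and LRP2, and all other neighbours were separate. None of the 8 genes had a second listed copy on an alternate scaffold.

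The effect of the PRDM16 lentivirus was compared next, and the CPM of the 6 genes that passed the filter on low counts (counts set against the TMM-scaled size of the library) are plotted by library. LRP2 and HNF4A did not pass.

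**Figure D2:**
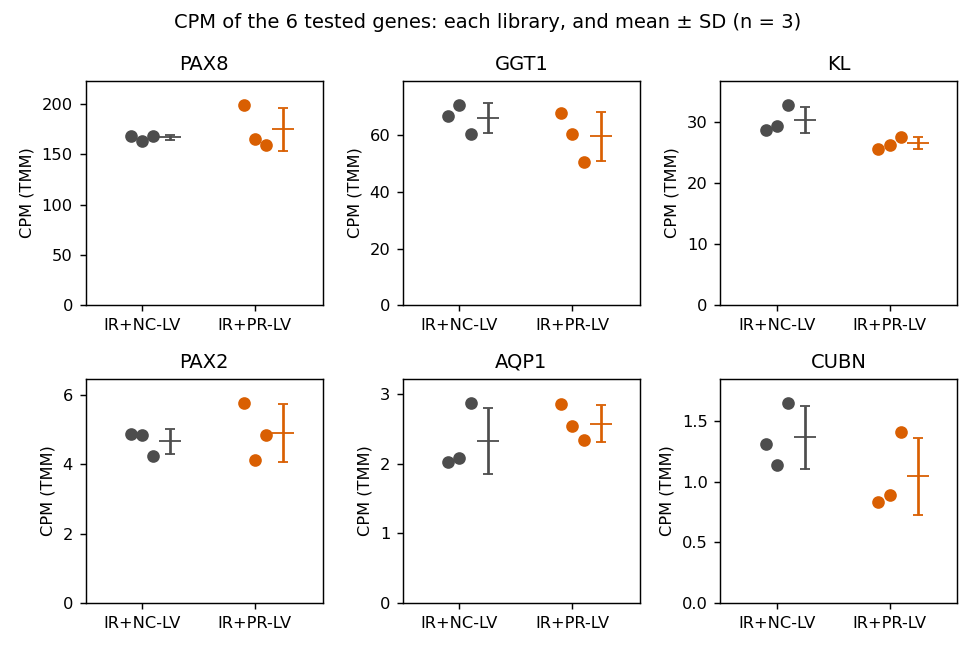
TMM-normalized CPM of the 6 tested genes, with a point per library and a bar for the mean ± SD (n = 3) beside each group; every axis starts at 0. The IR+NC-LV and IR+PR-LV libraries overlap for every gene except KL, where IR+PR-LV lies between 25.6 and 27.6 CPM and IR+NC-LV between 28.7 and 32.8 CPM.

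KL was at 28.7, 29.4 and 32.8 CPM in IR+NC-LV and at 25.6, 26.3 and 27.6 CPM in IR+PR-LV, and the groups did not overlap. The log2 fold change was −0.19 (SE 0.083, 95% interval −0.38 to −0.0053), a ratio of 0.875. The unadjusted p-value was 0.0450 and the adjusted p-value 0.463 in edgeR's test, and KL did not pass. A 2-sided exact permutation test gave p = 0.1, the smallest that 3 libraries against 3 allow. The share of 1 in 6 (16.7%) is near the 17% of all tested genes whose groups were separate.

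PAX8 was at 168.6, 163.8 and 168.2 CPM in IR+NC-LV and at 199.1, 165.6 and 159.8 CPM in IR+PR-LV. The IR+NC-LV libraries lay close together, and IR+PR-LV replicate 1 stood above the other 5. The log2 fold change was 0.067 (SE 0.084, adjusted p = 0.820), with an interval of −0.12 to 0.26. PAX2 showed the same library on top, with 4.89, 4.84 and 4.25 CPM in IR+NC-LV and 5.78, 4.11 and 4.84 CPM in IR+PR-LV, and a log2 fold change of 0.063 (SE 0.17, adjusted p = 0.916). Without IR+PR-LV replicate 1 both estimates changed sign, to −0.035 for PAX8 and −0.067 for PAX2. The sign of both estimates thus rested on that library.

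GGT1 was at 67.0, 70.7 and 60.3 CPM in IR+NC-LV and at 68.0, 60.4 and 50.5 CPM in IR+PR-LV. The lowest value belonged to IR+PR-LV, but its replicate 1 exceeded 2 of the 3 controls. Its log2 fold change was −0.15 (SE 0.11, adjusted p = 0.684), with an interval of −0.40 to 0.098.

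AQP1 was at 2.03, 2.09 and 2.88 CPM in IR+NC-LV and at 2.86, 2.54 and 2.34 CPM in IR+PR-LV, so its highest value was a control. The log2 fold change of AQP1 was 0.15 (SE 0.20, adjusted p = 0.822), with an interval of −0.29 to 0.60. CUBN, at 1.31, 1.14 and 1.66 CPM in IR+NC-LV and 0.834, 0.894 and 1.41 CPM in IR+PR-LV, had the widest interval, from −1.0 to 0.25 around a log2 fold change of −0.38 (SE 0.28, adjusted p = 0.685). Ratios from 0.499 to 1.19 of the control lie inside that interval.

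**Figure D3:**
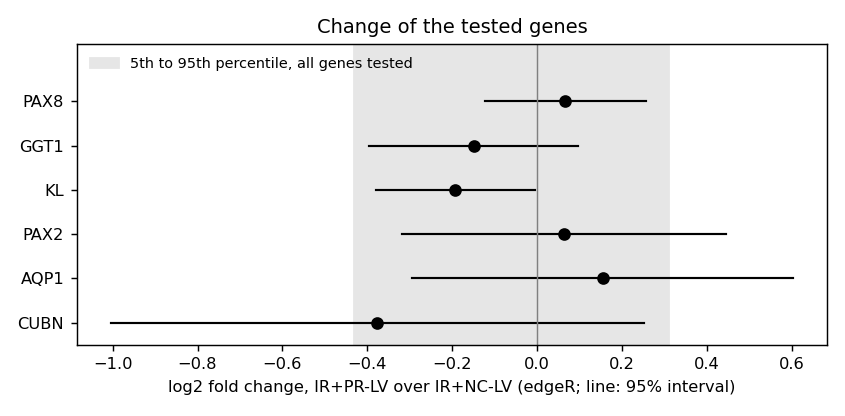
Log2 fold change of each tested gene in IR+PR-LV over IR+NC-LV (points) with its 95% interval from edgeR (lines), ordered by level; the shaded band holds the 5th to 95th percentile of all 15340 genes tested, −0.43 to 0.31. All 6 points lie inside the band, and the interval of KL, from −0.38 to −0.0053, is the only one that does not reach 0.

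Of the 6 tested genes, 3 estimates were positive and 3 negative, with a median of −0.043. Over all 15340 genes, 7839 estimates were positive and 7501 negative, with a median of 0.0044. With edgeR 0 of the 6 passed the threshold, beside 0.0652% of all genes, and 1 of the 6 had an unadjusted p-value under 0.05, beside 10.5% of all genes. DESeq2 called none of them either.

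RNAs of the endocytic machinery were present although the receptor RNAs were scarce. Whether the receptor pathway works in these cells was not tested. All 14 listed genes of the endocytic machinery were tested, and all 14 exceeded 1 TPM. Clathrin heavy chain CLTC was at 393.1 TPM, GIPC1, an adaptor of the megalin tail, at 174.7 TPM, and RAB11A, which returns receptors to the surface, at 78.3 TPM. DAB2, the clathrin adaptor of megalin, was at 39.4 TPM, and OCRL and CLCN5, mutated in Lowe syndrome and Dent disease, were at 69.0 and 8.92 TPM. AMN, the amnionless partner that cubilin needs to reach the membrane, was far lower at 1.78 TPM, and LRPAP1, the chaperone of LRP2, was at 13.2 TPM. None of the 14 passed between the groups, with 7 estimates positive and 7 negative, from −0.16 for FCGRT to 0.18 for RAB11A, and a median of 0.012. FCGRT was at −0.096 without IR+PR-LV replicate 3 and RAB11A at 0.075 without IR+NC-LV replicate 3. Relatives of LRP2 were expressed where LRP2 was not. LRP12 was at 157.9 TPM and LRP10 at 43.7 TPM, while LRP1B, like LRP2, was near 0 with 17 counts. The log2 fold change was 0.66 (SE 0.22, adjusted p = 0.372) for LRP6, which was read almost wholly from a copy outside the assembled chromosomes, and −0.51 for SORL1, and neither passed. These estimates ranged from 0.45 to 0.98 and from −0.70 to −0.35 when each library was left out in turn.

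**Figure D4:**
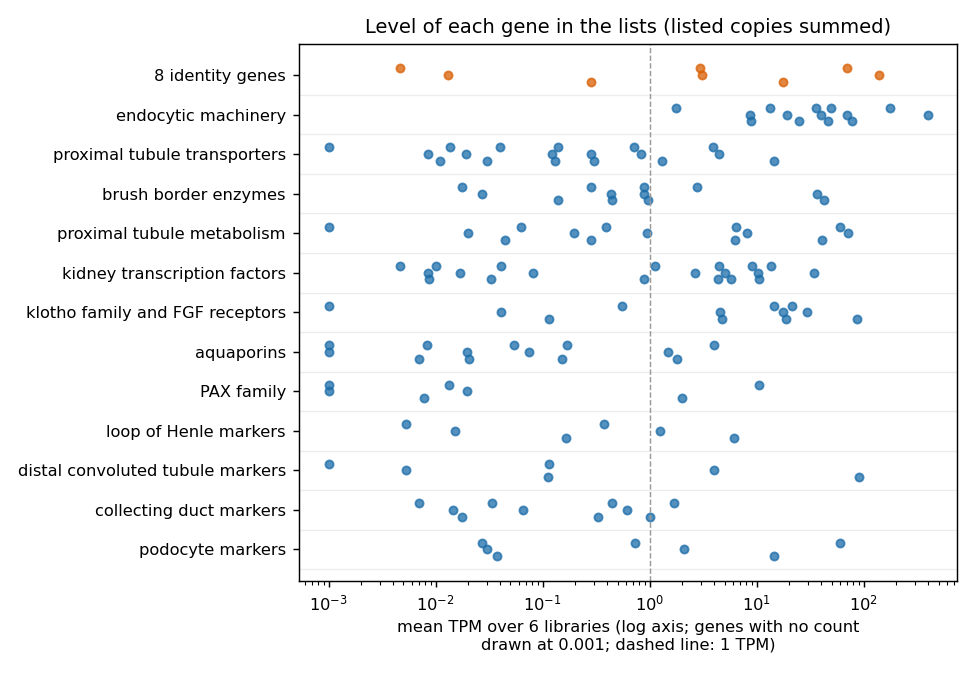
Mean TPM over the 6 libraries (log axis) of each gene in the identity set (orange) and in 12 related lists (blue), with listed copies of a gene summed; genes without a count are drawn at 0.001 and the dashed line is 1 TPM. The 14 endocytic machinery genes all lie above 1 TPM, whereas 4 of 18 proximal tubule transporters do.

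The proximal tubule transporters, not all of them apical, were mostly low. Of 18 transporter genes of the proximal tubule, 4 exceeded 1 TPM and 7 had at most 10 counts in the 6 libraries. The basolateral bicarbonate transporter SLC4A4 was highest at 14.6 TPM, followed by the phosphate transporter SLC20A2 at 4.44 TPM and the sodium-proton exchanger SLC9A3 at 3.92 TPM. The phosphate transporter SLC34A1 and the glucose transporter SLC5A2, both defining of the proximal tubule, were at 0.304 and 0.719 TPM, SLC5A1 had no count, and the organic anion transporters SLC22A6 and SLC22A8 had 1 count each. The 7 tested transporters gave 2 positive and 5 negative estimates with a median of −0.082, from −0.66 for SLC2A2 to 0.094 for SLC9A3, and none passed. SLC9A3 changed sign without IR+PR-LV replicate 1, to −0.038, and SLC2A2 was at −0.30 without IR+NC-LV replicate 2.

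Brush border enzymes divided in the same way. DPP4 at 42.6 TPM and PDZK1, the scaffold of apical transporters, at 36.3 TPM were well expressed, and MME followed at 2.78 TPM, while the aminopeptidase ANPEP was at 0.138 TPM and MEP1A had 2 counts. DPP4 had 910, 1206 and 833 counts in IR+NC-LV and 799, 1330 and 913 in IR+PR-LV, that is 43.6, 45.2 and 51.6 TPM against 37.8, 37.4 and 40.0 TPM. These groups did not overlap, but the log2 fold change of −0.24 (SE 0.069) did not pass (adjusted p = 0.291). The other 5 tested enzymes ranged from −0.33 for ENPEP to 0.27 for ACE. ENPEP was at −0.15 without IR+NC-LV replicate 3 and ACE at 0.085 without IR+PR-LV replicate 1.

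Metabolic genes of the proximal tubule gave 6 of 14 above 1 TPM. CYP24A1, which degrades active vitamin D and which FGF23 and klotho are known to regulate, was at 71.1 TPM, ASS1 at 59.2 TPM and the carbonic anhydrase CA2 at 40.8 TPM, while the gluconeogenic genes PCK1 and FBP1 had 9 and 17 counts and G6PC1 none. CYP24A1 was at 64.9, 65.8 and 69.3 TPM in IR+NC-LV and at 71.1, 73.2 and 82.2 TPM in IR+PR-LV, and MIOX, the renal inositol oxygenase, at 9.55, 8.59 and 9.15 TPM against 7.84, 6.78 and 6.35 TPM. Each pair of groups was separate, in opposite directions. CA2 was also separate, with IR+PR-LV lower, so 3 of the 7 tested genes were separate, beside 17% of all genes tested. For CYP24A1 and MIOX the log2 fold changes of 0.22 (SE 0.068, adjusted p = 0.340) and −0.34 (SE 0.12, adjusted p = 0.397) did not pass.

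Other kidney transcription factors were compared with HNF4A, PAX2 and PAX8. HNF4G, the paralogue of HNF4A, was at 9.09 TPM with 1604 counts against 4 for HNF4A, and its log2 fold change was 0.083. IRX3 was at 10.4 TPM, and WT1, EYA1 and EMX2 had 1, 4 and 2 counts. Of the 12 tested factors, counted as 14 entries with their copies, none passed, and 7 estimates were positive and 7 negative (median −0.039). GATA3 was the lowest at −0.93 (SE 0.27, adjusted p = 0.313) from 18, 21 and 21 counts in IR+NC-LV and 9, 18 and 12 in IR+PR-LV, and MAF was at −0.19 (SE 0.074, adjusted p = 0.417). In the PAX family PAX6 at 10.5 TPM and PAX9 at 2.0 TPM were the other expressed members, with log2 fold changes of −0.066 and −0.18. PAX6 changed sign without IR+PR-LV replicate 3, to 0.0062. PAX4 and PAX7 had no count, so PAX8 was the most abundant PAX gene by far.

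KL was expressed beside the receptors it works with. FGFR4, FGFR1 and FGFR3, which pair with klotho, were at 29.6, 21.5 and 14.5 TPM, and ADAM10 and ADAM17, the proteases that shed klotho from the membrane, were at 85.7 and 17.4 TPM. The klotho relatives LCTL and KLB were lower at 4.72 and 0.550 TPM, and the hormone FGF23 had 4 counts. None of the 9 tested genes of this list passed, and their estimates ranged from −0.12 for LCTL to 0.18 for FGFR4 (median 0.049). Both ends moved with single libraries, LCTL to −0.0093 without IR+NC-LV replicate 1 and FGFR4 to 0.037 without IR+PR-LV replicate 1. KL itself was at −0.19.

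AQP1 and GGT1 each had few expressed relatives. AQP11, AQP3 and AQP9 were at 4.0, 1.79 and 1.47 TPM, while AQP2, the channel of the collecting duct, had 1 count and AQP10 and AQP12A none. Their log2 fold changes were −0.38, −0.34 and −0.98, against 0.15 for AQP1, and none passed (adjusted p = 0.345 for AQP9). Without IR+NC-LV replicate 1 AQP3 and AQP9 were at −0.12 and −0.62. GGT7 was the only other gamma-glutamyl transferase above 1 TPM, at 27.1, 26.7 and 29.1 TPM in IR+NC-LV and 25.5, 20.8 and 21.2 TPM in IR+PR-LV, with a log2 fold change of −0.26 (SE 0.093, adjusted p = 0.397).

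No gene of these lists passed with edgeR or with DESeq2. An unadjusted p-value under 0.05 in edgeR was found for 0 of 14 endocytic genes, 0 of 7 transporters, 0 of 9 genes of the klotho list, 1 of 6 brush border enzymes, 2 of 7 metabolic genes, 2 of 14 transcription factor entries, 1 of 3 aquaporins, 0 of 2 PAX genes and the 1 tested gamma-glutamyl transferase, against 10.5% of all genes. In the marker lists it was found for 2 of 4 podocyte, 1 of 2 leukocyte and 2 of 15 epithelial entries. None was found among the 2 loop of Henle, 2 distal convoluted tubule and 2 collecting duct entries. The 1 endothelial and 3 fibroblast entries held none either.

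**Figure D5:**
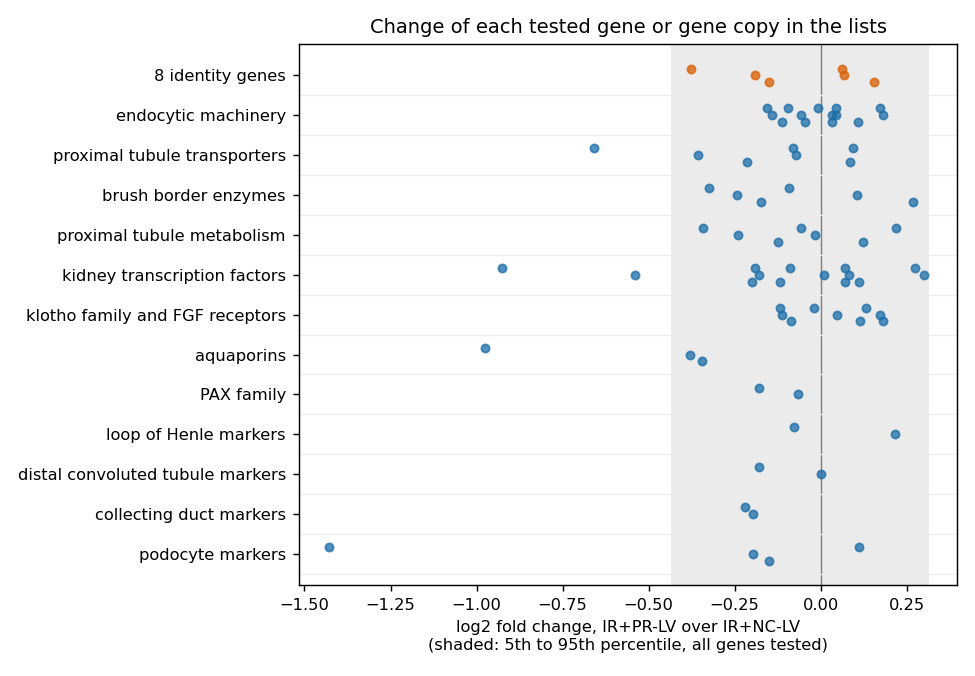
Log2 fold change (IR+PR-LV over IR+NC-LV) of each tested gene or gene copy in the identity set (orange) and in 12 related lists (blue); the shaded band holds the 5th to 95th percentile of all genes tested, −0.43 to 0.31. No gene shown passed the threshold in edgeR, and NPHS1 among the podocyte markers lies farthest out at −1.43.

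Markers of other cells were examined beside the identity genes. In the loop of Henle list, UMOD and SLC12A1 had 1 and 2 counts, while CLDN16 and CLDN14 were at 6.06 and 1.25 TPM. SLC12A3 of the distal convoluted tubule had 22 counts and AQP2 of the collecting duct 1, while WNK1, a kinase found in many cells, and AVPR2, the vasopressin receptor, were at 89.6 and 1.69 TPM. Several other lists thus had members at or above the levels of PAX2 and AQP1. Among podocyte markers, PODXL was at 60.0 TPM and SYNPO at 14.5 TPM. The endothelial genes PECAM1 and TIE1 were at 0.201 and 1.63 TPM. Of the leukocyte list, PTPRC had 10 counts, CD14 was at 4.14 TPM and the lysosomal protein CD68 at 176.9 TPM. Of 6 fibroblast genes, 2 exceeded 1 TPM, with LUM at 122.7 TPM, while DCN, PDGFRA and COL1A2 had 22, 19 and 7 counts. General epithelial genes were abundant, with KRT8 at 833.8 TPM, KRT18 at 631.7 TPM and KRT19 at 552.7 TPM. Among cadherins, CDH2 and CDH6, both known from the proximal tubule, were at 228.9 and 73.8 TPM, whereas CDH1 was at 0.420 TPM and the kidney cadherin CDH16 at 3.30 TPM. CLDN4 and KRT7 of the epithelial list were at 108.9 and 100.1 TPM, above CDH6. By list, 4 of 18 proximal tubule transporters, 3 of 12 brush border enzymes and 6 of 14 metabolic genes exceeded 1 TPM. CDH2 and CDH6, well expressed, are from the general epithelial list. Of the other genes tied to the proximal tubule, GGT1, DPP4, PDZK1 and ASS1 were well expressed, while CUBN, AQP1 and SLC34A1 were low. LRP2, HNF4A and SLC22A6, markers of its mature state, were at or near 0. PAX8 was high but is a factor of the renal epithelium in general. The label of a proximal tubular cell was thus matched only in part. None of these marker genes passed in edgeR or DESeq2. NPHS1, which encodes nephrin, was at 1.02, 0.986 and 1.22 TPM in IR+NC-LV and at 0.346, 0.432 and 0.352 TPM in IR+PR-LV, with a log2 fold change of −1.43 (SE 0.22, adjusted p = 0.0755). Summed over the 7 podocyte markers, most of it PODXL, TPM ranged from 76.8 to 91.1 in IR+NC-LV and from 68.9 to 74.4 in IR+PR-LV. Summed over the 5 leukocyte markers, nearly all of it CD68, the ranges were 187.1 to 205.4 and 159.1 to 174.6. Neither pair of ranges overlapped in TPM. Sums of other lists, the aquaporins among them, did not overlap either, so this was not particular to these markers. In CPM, the scale of the group comparison, NPHS1 and PODXL were separate like KL, whereas CD68 overlapped, with IR+NC-LV replicate 3 at 88.5 CPM and IR+PR-LV replicate 2 at 90.6 CPM. The part of these markers in the KL values was not tested.

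Variation between libraries was last compared across the identity genes. In log2 CPM over the 6 libraries, KL and CUBN varied together most closely (Pearson r = 0.851), followed by PAX8 and PAX2 (r = 0.710), and CUBN and PAX8 were the most opposed (r = −0.583). These are descriptions over 6 libraries that differ in depth. The genes whose pattern was most like that of a member, all with r between 0.988 and 0.998, were LOC105372269, ZNF543 and CYLD for KL, ZNF264, FAM200A and ADPRH for CUBN, and CIC, APRT and TRIM28 for PAX8. For PAX2 they were DTX2, MRPL55 and ERICH1, for GGT1 DNAJC30, TUBB2B and TGFB1I1, and for AQP1 LOC100289230, NAA35 and KMT2E-AS1. With so few libraries such likeness is common, since 523 genes had r above 0.9 with PAX8, 497 with KL and 90 with PAX2.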

How the data were processed

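Total RNA of HK-2 cells was poly(A)-selected by the authors and sequenced as paired-end reads, and reads of low quality or with adapters were removed. The submitters' processing notes name featureCounts 2.0.1, DESeq2 1.16.1 and the build hg38; the aligner and the use of strand are not given in the sources used here. The authors deposited raw counts per gene, with TPM and FPKM made from the same counts and gene lengths. FPKM was not used. The total count per library was 13407074 to 28540041, and limits of detection cover counting error only.

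Counts were tested in R 4.3.3 with edgeR 4.0.16 (filterByExpr at a minimum count of 10 and minimum total count of 15, TMM normalization, glmQLFit and glmQLFTest, no covariates). Adjustment over the 15340 genes followed Benjamini and Hochberg with a threshold of 0.05, and the procedure was tested on simulated data. The common biological coefficient of variation was 0.106. CPM are TMM-normalized. Exact permutation tests were 2-sided. Correlations used log2 CPM with a prior count of 2. Coordinates and exon bases are those of the files, and overlaps of exons were computed from them. Promoters were from RefSeq, and the KL transcripts from GENCODE.

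The 8 genes and the related lists were chosen with earlier results of these data known. In each list the rule was to name the 3 highest tested genes and the lowest and highest log2 fold change. Genes with an unadjusted p-value under 0.05 were also in the rule, but not every gene it picks is named. Beyond this rule, the text names genes with a defined role that were picked after their values were seen. Results of some genes are not reported here. Alternatives were RLE and upper-quartile scaling, DESeq2 1.42.0, other filters, the replicate number as a block, summed copies, a stricter threshold, and each library left out in turn. Same-numbered libraries of the groups did not deviate together, with correlations between −0.00884 and 0.0706.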

Additional observations from a re-analysis of the deposited data

How the results depend on the processing

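For the 6 tested identity genes, 79 values were computed under other settings. None passed the threshold (smallest adjusted p = 0.268), 77 kept their direction and 2 did not. Those were PAX8, with a log2 fold change between −0.035 and 0.13 when each library was left out in turn, and PAX2, between −0.067 and 0.18, both negative only without IR+PR-LV replicate 1. KL ranged from −0.23 to −0.13, CUBN from −0.63 (IR+PR-LV replicate 3 left out) to −0.23 (IR+NC-LV replicate 3 left out), GGT1 from −0.25 (IR+PR-LV replicate 1 left out) to −0.045 (IR+PR-LV replicate 3 left out) and AQP1 from 0.065 (IR+NC-LV replicate 1 left out) to 0.32 (IR+NC-LV replicate 3 left out). Among related genes, PAX6 ranged from −0.12 to 0.0062 and SLC9A3 from −0.038 to 0.19. Medians of lists also moved with single libraries, from −0.28 to −0.072 for the transporters, −0.20 to −0.0100 for the brush border enzymes, −0.10 to 0.071 for the metabolic genes and −0.12 to 0.030 for the kidney transcription factors, and no list is described by the direction of its median.

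The number of genes past the threshold, over all genes, depended more on the setting than any value above. It was 10, against 166 with DESeq2, 342 with no filter on low counts and 1 at an adjusted p-value threshold of 0.01, and leaving out a library gave from 1 (IR+PR-LV replicate 3, and likewise IR+NC-LV replicate 1, left out) to 28 (IR+NC-LV replicate 2 left out), with 16 when IR+NC-LV replicate 3 was left out. With the replicate number as a block it was 3, all 3 among the 10; the shared numbers did not pair the libraries. With no filter, LRP6 on the alternate scaffold (adjusted p = 0.00187), NPHS1 (0.00195) and a copy of TJP1 (0.000622) passed, and that copy also passed without IR+PR-LV replicate 2 (0.0285). The cause was not tested. No identity gene was among these. Depth limited HNF4A, LRP2 and CUBN: the former pair could not be tested, and the interval of CUBN ran from −1.0 to 0.25.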
